A study of Homo sapiens with 17 samples.

Results

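The 9 genes described here encode secreted glycoproteins of the extracellular matrix: the tenascins TNC and TNXB, periostin (POSTN), the thrombospondins THBS1 and THBS2, SPARC, fibronectin (FN1), and the cellular communication network factors CCN1 (CYR61) and CCN2 (CTGF). They were chosen by symbol from the 41040 named genes of the count tables, and all 9 were listed there. The study sequenced RNA in 17 libraries of IMR-90, an established diploid fibroblast line from human fetal lung. Untreated cells were collected as week 0 (day 0, n = 5). The other cultures received etoposide, a topoisomerase II poison that leaves DNA double-strand breaks, at 20 µM over 48 h. They were then kept in drug-free medium until harvest at week 1 (day 7, n = 6) or week 4 (day 28, n = 6). All groups are of this single line, with no untreated cells at later times, so treatment and time in culture cannot be told apart. The labels do not say that the libraries of a group came from separate cultures, and p-values therefore rest on a spread between libraries that may be technical only.

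Fibronectin is the dimeric glycoprotein that cells pull into fibrils through integrins, and its fibrils act as a scaffold on which collagens and other matrix proteins are laid down. Matricellular proteins sit in the same matrix but carry little mechanical load; they bind integrins, growth factors and collagens and alter how cells adhere and respond. They are known for low levels in most adult tissues and high levels in development, wound repair and fibrosis, and several are part of the secretory output described for senescent fibroblasts. CCN1 is also known in mouse skin wounds as a factor that drives myofibroblasts into senescence.

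A library totalled 77162364 to 102815295 counts over named genes, so for abundant genes counting error was small beside the spread between libraries. Levels are given as CPM, the counts-per-million value on library sizes scaled by the trimmed mean of M-values (TMM). Of 11 fibroblast markers, none was under 1 CPM in all libraries, and their sum on unscaled library totals, as for all marker sums, was 32972 to 38880 CPM at week 0, 42699 to 44748 CPM at week 1 and 54473 to 57580 CPM at week 4. COL1A1 alone averaged 16897, 20357 and 28475 CPM. By edgeR at an adjusted p under 0.05, 5 of the 11 were higher and 5 lower at week 1 than at week 0. At week 4 against week 0, 7 were higher and 2 lower. Of all tested genes, 32.9% were higher and 34% lower at week 1, and 33.9% and 33.7% at week 4. Leukocyte and platelet markers, from blood cells that also make thrombospondin, were all under 1 CPM in every library. The 5 leukocyte markers summed to 0.214 to 0.394, 0.467 to 0.7196 and 0.236 to 0.791 CPM at weeks 0, 1 and 4, and the 4 platelet markers to 0.046 to 0.255, 0.0955 to 0.303 and 0.204 to 0.365 CPM. Epithelial markers summed to 65.0 to 71.5, 235 to 275 and 193 to 213 CPM at weeks 0, 1 and 4, with 5 of 8 under 1 CPM throughout (EPCAM, CDH1, KRT5, SFTPC and NKX2-1). Most of this sum was KRT18, which averaged 45.7, 192 and 154 CPM, with KRT8 and KRT19 as the rest. The endothelial sum (6 genes) was 83.9 to 103.4 CPM at week 0, 58.3 to 62.2 CPM at week 1 and 52.1 to 76.6 CPM at week 4. CDH5 and CLDN5 were under 1 CPM throughout. TEK made up most of the endothelial sum, averaging 83.6, 59.6 and 69.02 CPM at weeks 0, 1 and 4. Of the 4 endothelial markers tested by edgeR, 2 were higher and 2 lower at week 1 than at week 0. The split at week 4 against week 0 was also 2 higher and 2 lower. The smooth muscle and pericyte sum (8 genes) was 1475 to 1674, 1278 to 1378 and 1164 to 1292 CPM in the same order, with MYH11 under 1 CPM throughout. This falling sum does not stand for each marker. MCAM averaged 398, 155 and 112 CPM at weeks 0, 1 and 4, while ACTG2 averaged 615, 721 and 699 CPM. By the same edgeR test, 4 of the 8 were higher and 2 lower at week 1 than at week 0. At week 4 against week 0, 5 were higher and 1 lower. The part of these marker shifts in the results was not tested. Week 0 replicates 1 and 4 stood apart, with 6.34% and 5.59% of their counts in ribosomal protein genes against 3.45% to 4.22% in the other 15 libraries. Fits without them are given where they bear on a result.

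The DNA in front of 4 of these genes is shown: FN1 and THBS2, which had the largest log2 fold changes over week 0 among the 8 tested, THBS1, the paralog of THBS2 that moved otherwise, and CCN2, which was lower than at week 0. The sequences are the 250 bases before the RefSeq start on GRCh38.p14, written 5′ to 3′ on the gene's strand. Capitals mark GGAATG or its complement CATTCC, the core letters bound by TEAD factors, the TGACGTCA letters of a cAMP response element, and TATAAA of a TATA box on the gene strand.
FN1 (chr2:215436069-215436318, minus strand): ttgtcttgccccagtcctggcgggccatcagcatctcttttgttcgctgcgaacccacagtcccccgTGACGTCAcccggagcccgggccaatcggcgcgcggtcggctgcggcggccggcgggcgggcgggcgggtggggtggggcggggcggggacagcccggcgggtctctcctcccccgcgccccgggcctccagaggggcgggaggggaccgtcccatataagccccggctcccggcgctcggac
THBS2 (chr6:169253847-169254096, minus strand): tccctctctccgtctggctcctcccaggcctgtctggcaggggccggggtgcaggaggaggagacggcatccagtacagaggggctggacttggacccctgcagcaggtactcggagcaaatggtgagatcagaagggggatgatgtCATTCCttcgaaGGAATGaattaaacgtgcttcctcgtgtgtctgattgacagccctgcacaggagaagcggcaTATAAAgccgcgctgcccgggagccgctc
THBS1 (chr15:39580829-39581078, plus strand): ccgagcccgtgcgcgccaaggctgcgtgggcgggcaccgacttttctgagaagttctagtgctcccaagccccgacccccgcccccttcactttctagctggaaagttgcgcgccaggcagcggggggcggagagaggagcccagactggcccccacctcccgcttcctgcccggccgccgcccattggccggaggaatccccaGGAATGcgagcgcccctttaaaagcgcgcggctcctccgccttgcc
CCN2 (chr6:131951373-131951622, minus strand): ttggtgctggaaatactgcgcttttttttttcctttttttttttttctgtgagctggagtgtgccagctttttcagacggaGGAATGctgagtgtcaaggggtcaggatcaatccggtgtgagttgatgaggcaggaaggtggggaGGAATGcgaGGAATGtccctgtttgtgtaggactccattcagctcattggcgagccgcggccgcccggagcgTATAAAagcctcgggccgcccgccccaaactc

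A RefSeq sequence was matched for 8 of the 9 genes, and CCN1 is named only. The letters GGAATG on either strand stood in 4 of the 8 windows, those of THBS1, THBS2, SPARC and CCN2, against 11.9% of 35116 promoter windows of the same length. CCN2 held 3 copies, with first bases at -169, -104 and -95 from the start. THBS2 held a pair in opposite orientation at -103 and -91, THBS1 a single copy at -46 and SPARC a single copy at -17. TGACGTCA stood in the FN1 window alone among the 8, at -183, against 1.65% of all windows. TATAAA stood in 3 windows, at -29 in POSTN, -29 in THBS2 and -32 in CCN2, against 6.80% of all windows. None of these letters stood in the windows of TNC or of the first of the 2 TNXB starts in the table. Only exact letters were matched, so near forms such as TATAAG, present in the TNC and FN1 windows, are not counted. A window without TATAAA is therefore not shown to lack a TATA box. No match overlapped another. The letters were chosen with the results and sequences known, and a match is a description of the sequence, not a site shown to be bound.

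TNXB, which encodes tenascin-X, a large tenascin of connective tissue whose loss causes a form of Ehlers-Danlos syndrome, could not be read. It had a count of 0 in 16 of 17 libraries and of 1 in a single week 4 library. A count of 0 allows up to 3 counts, or 0.0292 to 0.0389 CPM on unscaled library totals, depending on the library. Most of its neighbours in the major histocompatibility region were listed likewise. Of 19 listed genes among the nearest 10 protein-coding genes on each side in RefSeq order, 18 had at most 5 counts in every library and 14 had 0 throughout. The 18 include NELFE, a subunit of the negative elongation factor, at 0 throughout. They also include SKIC2, an RNA helicase of the exosome pathway, with at most 1 count in any library. Cells in general express both genes. The exception was AGPAT1, an acyltransferase gene, with up to 872 counts. TNXB is therefore reported as listed at 0 and not as unexpressed. Its partial copy TNXA had 2 counts in 1 library. TNXB did not pass the filter on low counts, and the tests below cover the other 8 genes.

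Per kilobase of gene length, FN1 was the most abundant of the 8 at week 0, at 675 ± 92.6 CPM per kilobase (mean ± SD over libraries throughout). The libraries of FN1 overlapped those of THBS1, at 537 ± 58.7, and these overlapped those of SPARC, at 520.2 ± 32.5 CPM per kilobase. CCN2 followed at 419 ± 27.2, TNC at 209 ± 26.0, CCN1 at 136 ± 2.49, POSTN at 73.9 ± 4.68 and THBS2 at 11.02 ± 1.24 CPM per kilobase, each without overlap with its neighbour. At week 1 the order was FN1, SPARC, THBS1, CCN2, CCN1, TNC, POSTN and THBS2, with no overlap between neighbours. FN1 then stood at 2125 ± 142 CPM per kilobase and SPARC at 1021 ± 21.1 CPM per kilobase. At week 4 TNC, at 351 ± 29.7 CPM per kilobase, stood beside CCN2, at 332 ± 21.98 CPM per kilobase, and their libraries overlapped. THBS2 stayed the lowest of the 8 in all groups, at 29.4 ± 2.03 CPM per kilobase at week 1 and 41.2 ± 2.14 CPM per kilobase at week 4. These lengths come from the gene models in the deposited tables and take no account of which splice forms were made, so they say nothing of the alternatively spliced extra domains of FN1 or TNC. They are 17216 bases for FN1, 9158 for THBS1, 3698 for CCN1 and 2338 for CCN2, and may differ from the transcripts made. Ranks and ratios between genes depend on them. By CPM without length, FN1 averaged 11622 and THBS1 4921 CPM at week 0, and both kept their ranks there. TNC then stood above CCN2 at week 0 (2002 against 981 CPM) and at week 4 (3366 against 776 CPM). At week 1 TNC stood above both CCN2 and CCN1 (1124 against 760 and 678 CPM). THBS1 stood above SPARC at week 4 (6423 against 4770 CPM).

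**Figure D1:**
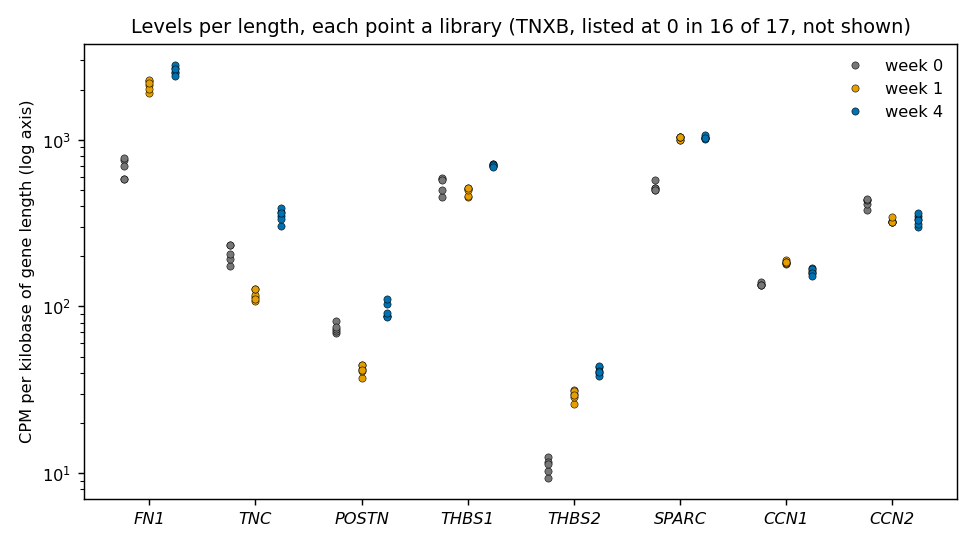
Levels of the 8 measurable genes as CPM per kilobase of gene length on a log axis, each point a library of week 0, week 1 or week 4. FN1 stands highest in each week and THBS2 lowest, while TNC lies below CCN1 at week 1 and beside CCN2 at week 4.

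FN1, the scaffold gene, rose early and rose further by week 4. It stood at 9954, 12923, 9964, 13306 and 11963 CPM in week 0 replicates 1, 3, 4, 5 and 6. The lowest, median and highest of the 6 libraries were 32736, 37136 and 39190 CPM at week 1, and 41523, 44918 and 48540 CPM at week 4. The 3 groups did not overlap, and week 0 replicates 1 and 4 were the lowest of their group. FN1 took 1.07% to 1.45% of all counts at week 0, 3.24% to 3.79% at week 1 and 4.05% to 4.62% at week 4. By edgeR's quasi-likelihood test, FN1 was 3.15-fold higher at week 1 than at week 0 (log2 fold change 1.65 ± 0.08 SE, adjusted p = 1.1e-14). It was 3.87-fold higher at week 4 than at week 0 (1.95 ± 0.08, adjusted p = 8.5e-16). It was 1.23-fold higher at week 4 than at week 1 (0.30 ± 0.07, adjusted p = 0.0015). The log2 fold change at week 1 was 1.47 within the 4 libraries whose tables also hold gene lengths, a difference in file format whose origin the labels do not give, and 1.77 within the other 13. The 4 are week 0 replicates 5 and 6 and week 1 replicates 1 and 2. The week 0 libraries of the other 13 are replicates 1, 3 and 4. Here and for the genes below, this split therefore cannot be told apart from the high ribosomal share of replicates 1 and 4.

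TNC and POSTN fell at week 1 and stood above week 0 by week 4. TNC encodes tenascin-C, which binds fibronectin and loosens adhesion to it, known for its return at wound edges and in fibrotic lung. TNC was at 1673, 2241, 1857, 2250 and 1987 CPM in week 0 replicates 1, 3, 4, 5 and 6. At week 1 its lowest, median and highest values were 1039, 1106 and 1212 CPM, and at week 4 they were 2911, 3422 and 3722 CPM. All week 1 libraries lay below all week 0 libraries, and all week 4 libraries lay above both. TNC was 1.78-fold lower at week 1 than at week 0 (log2 fold change -0.83 ± 0.07 SE, adjusted p = 1.2e-09). It was 1.68-fold higher at week 4 than at week 0 (0.75 ± 0.07, adjusted p = 9.2e-09) and 2.995-fold higher at week 4 than at week 1 (1.58 ± 0.07, adjusted p = 2.8e-13, all by edgeR). The fall at week 1 was by 0.99 on the log2 scale within the tables with gene lengths and by 0.75 within the other 13.

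POSTN encodes periostin, a fasciclin-domain protein that binds collagen I, fibronectin and tenascin-C and promotes collagen cross-linking. It stood at 377, 389.5, 444, 399 and 411 CPM in week 0 replicates 1, 3, 4, 5 and 6. The lowest, median and highest values were 203, 229 and 243 CPM at week 1, and 471, 487 and 604 CPM at week 4. As for TNC, the 3 groups did not overlap and ran in the order week 1, week 0, week 4 from low to high, though the gap between the lowest week 4 library and the highest week 0 library was small. POSTN was 1.77-fold lower at week 1 than at week 0 (log2 fold change -0.82 ± 0.07 SE, adjusted p = 2.1e-10). It was 2.26-fold higher at week 4 than at week 1 (1.17 ± 0.06, adjusted p = 5.2e-12) and 1.28-fold higher at week 4 than at week 0 (0.35 ± 0.07, adjusted p = 7.1e-05, edgeR). On library totals without TMM scaling, which shifts the median of all genes at week 4 by -0.19, POSTN at week 4 over week 0 was at 0.16 (adjusted p = 0.039). On those totals the 2 groups overlapped, with week 4 from 0.0448% of all counts and week 0 up to 0.0478%. Within the tables with gene lengths the log2 fold change at week 1 was -0.91, and within the other 13 it was -0.78.

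**Figure D2:**
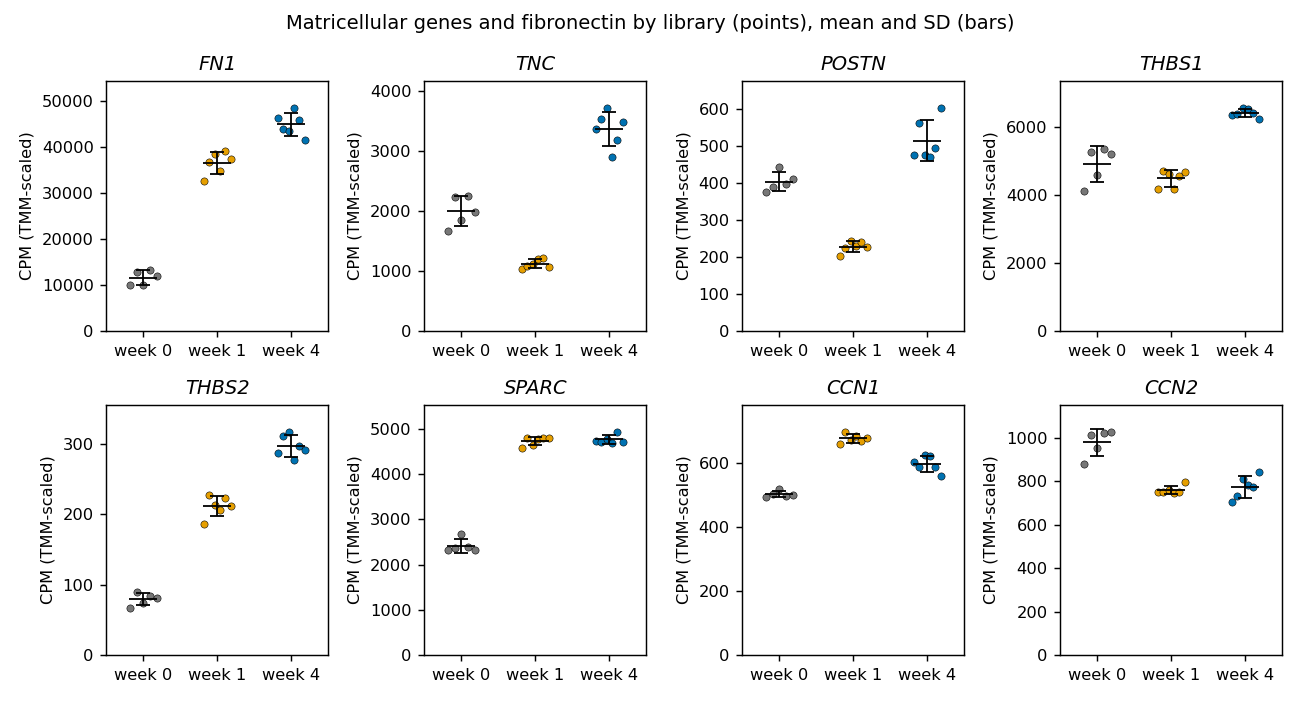
CPM on TMM-scaled library sizes of the 8 measurable genes at week 0, week 1 and week 4, with a point for each library, a short line for the mean and whiskers for the SD, each axis starting at 0. FN1 and THBS2 step up at both times, TNC and POSTN dip at week 1 and stand highest at week 4, SPARC steps up once, and CCN2 steps down once.

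The thrombospondins differed from each other. THBS1 encodes a trimeric protein that activates latent TGF-beta and, through CD36 and CD47, restrains blood vessel growth; THBS2 is its paralog, which shares the receptors but lacks the sequence that activates TGF-beta. THBS1 was at 4138, 5288, 4585, 5374 and 5222 CPM in week 0 replicates 1, 3, 4, 5 and 6. Its lowest, median and highest values were 4175, 4605 and 4712 CPM at week 1 and 6250, 6400 and 6575 CPM at week 4. The week 1 libraries overlapped those of week 0, and all week 4 libraries lay above both groups. At week 1 against week 0 THBS1 was not called (log2 fold change -0.13 ± 0.06 SE, 95% interval -0.25 to -0.01, adjusted p = 0.058). That outcome changed with the scaling and with the libraries used. On library totals alone the log2 fold change was -0.29 (adjusted p = 8.5e-05), and with upper-quartile scaling it was -0.06 (adjusted p = 0.37). Without both week 0 replicates 1 and 4, the value was -0.24 (adjusted p = 1.0e-05), without replicate 1 alone -0.19 (adjusted p = 0.0014) and without replicate 4 alone -0.16 (adjusted p = 0.031). Over each of the 17 libraries left out in turn, the adjusted p ran from 0.0014 to 0.16. The log2 fold change was -0.25 within the tables with gene lengths and -0.06 within the other 13. At week 4, THBS1 was 1.31-fold higher than at week 0 (0.38 ± 0.06, adjusted p = 6.5e-06) and 1.43-fold higher than at week 1 (0.51 ± 0.06, adjusted p = 2.3e-07, edgeR). On library totals alone the value over week 0 was 0.19 (adjusted p = 0.0047).

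THBS2 rose at both times. Its values were 67.1, 89.8, 73.9, 84.3 and 81.5 CPM in week 0 replicates 1, 3, 4, 5 and 6. The lowest, median and highest libraries were at 187, 213 and 228 CPM at week 1 and at 276, 294 and 317 CPM at week 4. The 3 groups did not overlap. THBS2 was 2.67-fold higher at week 1 than at week 0 (log2 fold change 1.41 ± 0.07 SE, adjusted p = 2.1e-14), with 1.33 within the tables with gene lengths and 1.46 within the other 13. It was 3.74-fold higher at week 4 than at week 0 (1.90 ± 0.07, adjusted p = 1.9e-16) and 1.402-fold higher at week 4 than at week 1 (0.49 ± 0.06, adjusted p = 1.6e-06, edgeR). Per kilobase, THBS1 exceeded THBS2 by a factor of 46.3 to 50.4 in the week 0 libraries, 16.01 to 17.6 at week 1 and 16.1 to 18.6 at week 4. The ratio was lower in all week 1 and week 4 libraries than in any week 0 library, and week 1 and week 4 overlapped. Of the promoter windows printed above, both held GGAATG or its complement, and that of THBS2 also held TATAAA.

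**Figure D3:**
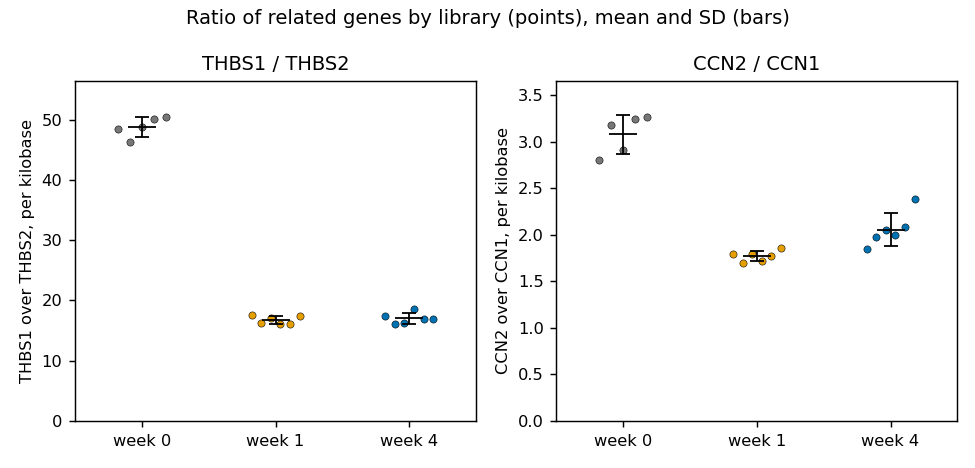
Ratio of THBS1 to THBS2 and of CCN2 to CCN1 in each library, per kilobase of gene length, with the mean as a short line and the SD as whiskers, at week 0, week 1 and week 4. Both ratios are lower in all libraries of weeks 1 and 4 than in any week 0 library, and week 1 and week 4 overlap for both pairs.

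SPARC encodes osteonectin, a collagen-binding matricellular protein needed for normal collagen fibril assembly. It stood at 2313, 2374, 2677, 2379 and 2320 CPM in week 0 replicates 1, 3, 4, 5 and 6. The lowest, median and highest values were 4588, 4789 and 4810 CPM at week 1 and 4701, 4733 and 4946 CPM at week 4. Weeks 1 and 4 overlapped each other, and all their libraries lay above week 0. SPARC was 1.96-fold higher at week 1 than at week 0 (log2 fold change 0.97 ± 0.04 SE, adjusted p = 6.0e-15). It was 1.98-fold higher at week 4 than at week 0 (0.98 ± 0.04, adjusted p = 6.0e-15). Between week 4 and week 1 no difference was called (log2 fold change 0.01 ± 0.04, 95% interval -0.07 to 0.09, adjusted p = 0.87, edgeR). Within the tables with gene lengths the week 1 value was 1.01 and within the other 13 it was 0.95.

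The CCN genes moved in opposite directions relative to week 0. CCN1 encodes a heparin-binding ligand of integrins, and CCN2 a close relative widely used as a marker of fibrosis; both are known as immediate-early genes and as targets of the YAP and TAZ coactivators acting through TEAD factors. CCN1 was at 496, 504, 519, 498 and 499.5 CPM in week 0 replicates 1, 3, 4, 5 and 6. At week 1 the lowest, median and highest values were 660.3, 675 and 699 CPM, and at week 4 they were 561, 596 and 624.5 CPM. The groups did not overlap, with week 4 between week 0 and week 1. CCN1 was 1.35-fold higher at week 1 than at week 0 (log2 fold change 0.43 ± 0.04 SE, adjusted p = 1.5e-09) and 1.19-fold higher at week 4 than at week 0 (0.25 ± 0.04, adjusted p = 6.2e-06). At week 4 it was 1.13-fold lower than at week 1 (-0.18 ± 0.04, adjusted p = 3.8e-04, edgeR). The call at week 4 depended on scaling: on library totals alone the log2 fold change over week 0 was 0.06 and was not called (adjusted p = 0.16), and at week 1 it was 0.27 (adjusted p = 5.1e-07). On those totals week 4 overlapped week 0, with week 4 from 0.0546% of all counts and week 0 up to 0.0558%. Within the tables with gene lengths the week 1 value was 0.45 and within the other 13 it was 0.41.

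CCN2 was at 879, 1014, 956, 1023 and 1030.5 CPM in week 0 replicates 1, 3, 4, 5 and 6. Its lowest, median and highest values were 745, 753 and 798 CPM at week 1 and 704, 781 and 846 CPM at week 4. All treated libraries lay below all week 0 libraries, and weeks 1 and 4 overlapped. CCN2 was 1.29-fold lower at week 1 than at week 0 (log2 fold change -0.37 ± 0.05 SE, adjusted p = 1.3e-06) and 1.26-fold lower at week 4 than at week 0 (-0.34 ± 0.05, adjusted p = 4.3e-06). On library totals alone the week 4 value was -0.53 (adjusted p = 5.5e-09). Week 4 and week 1 were not called apart (0.03 ± 0.05, 95% interval -0.07 to 0.13, adjusted p = 0.67, edgeR). The week 1 value was -0.44 within the tables with gene lengths and -0.32 within the other 13. Per kilobase, CCN2 exceeded CCN1 by a factor of 2.81 to 3.26 at week 0, 1.70 to 1.86 at week 1 and 1.84 to 2.39 at week 4. The size of this factor, though not its change between weeks, depends on the lengths used. The ratio in week 1 and week 4 libraries lay below that in all week 0 libraries.

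**Figure D4:**
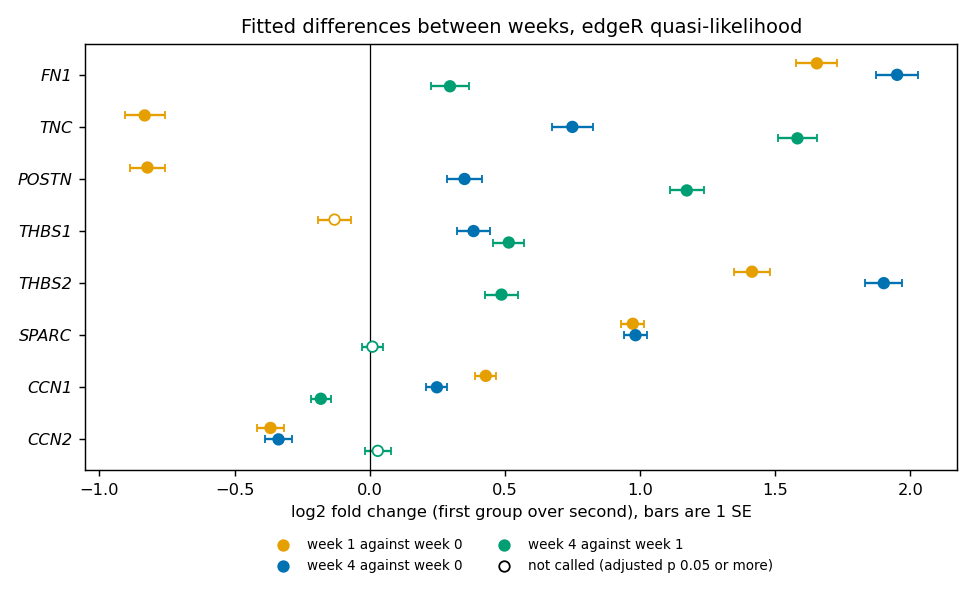
Log2 fold changes of the 8 measurable genes in the 3 comparisons, first group over second, with bars of 1 SE, filled where the adjusted p was under 0.05 and open where it was not. FN1, THBS2, SPARC and CCN1 lie right of 0 and CCN2 left of 0 in both comparisons with week 0, while TNC and POSTN lie left of 0 at week 1 and right of it at week 4.

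Counted together, 4 of the 8 tested genes were higher and 3 lower at week 1 than at week 0. Of all 16891 tested genes, 66.9% were called there, 32.9% higher and 34% lower. At week 4 against week 0, 7 of the 8 were higher and 1 lower, against a background of 33.9% higher and 33.7% lower (67.6% called). Between week 4 and week 1, 5 of the 8 were higher and 1 lower, against a background of 21.8% higher and 18.6% lower (40.5% called). The 2 comparisons with week 0 share the same untreated libraries. The median log2 fold change of the 8 was 0.15, 0.57 and 0.39 in the 3 comparisons, against -0.02, 0.00 and 0.01 over all tested genes. The groups did not overlap for 7, 8 and 6 of the 8, against 48.7%, 49% and 30.2% of all tested genes. This holds on TMM-scaled levels. On library totals alone, POSTN and CCN1 overlapped between week 4 and week 0. The backgrounds in this paragraph are not matched for level. Of the 16891 tested genes, 10118 averaged at least 5 CPM, while the lowest group mean among the 8 was 79.3 CPM (THBS2 at week 0). Shares among genes of like level were not counted. Tested against a minimum change of 1.5-fold, TNC, POSTN, THBS2, SPARC and FN1 passed at week 1, TNC, THBS2, SPARC and FN1 passed at week 4 against week 0, and TNC and POSTN alone of the 8 passed between week 4 and week 1. The share of all tested genes that passed this minimum was not counted, so these passes have no background to be read beside. The 9 genes together took 2.20% to 2.75% of all counts at week 0, 4.39% to 5.00% at week 1 and 5.68% to 6.18% at week 4, most of it FN1 at weeks 1 and 4. Without week 0 replicates 1 and 4 the log2 fold changes at week 1 and week 4 over week 0 were 1.52 and 1.82 for FN1, 1.31 and 1.80 for THBS2, -0.95 and 0.64 for TNC, and -0.43 and -0.40 for CCN2. In the same fit they were 1.00 and 1.01 for SPARC, -0.81 and 0.36 for POSTN, and 0.43 and 0.25 for CCN1, and THBS1 was at 0.28 at week 4. In bulk RNA, fewer cells of a type and less RNA per cell cannot be told apart. Genes that overlap a tested member on the genome in RefSeq and are listed in the tables had levels of at most 0.567% of that member's, and reads dropped because they fall on both genes were not measured.

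Other members of the same families moved in both directions. Counts in the lists below are read beside the shares of all tested genes called higher, 32.9%, 33.9% and 21.8% in the 3 comparisons, and called lower, 34%, 33.7% and 18.6%. List medians are read beside those of all tested genes, -0.02, 0.00 and 0.01. Of 17 such genes 13 were tested, and 8 were higher and 3 lower at week 1, 9 higher and 2 lower at week 4 against week 0, and 7 higher and 4 lower at week 4 against week 1. The list's median log2 fold change was 0.79, 0.68 and 0.21 in the 3 comparisons. CCN4 (WISP1), a Wnt-induced relative of CCN2, stood at 7.52 ± 0.288, 27.4 ± 1.36 and 51.3 ± 7.67 CPM at weeks 0, 1 and 4 and rose in all 3 comparisons. CCN3 (NOV), a relative with growth-restraining activity, had 6.21 ± 1.07, 2.34 ± 0.287 and 1.74 ± 0.385 CPM at weeks 0, 1 and 4 and fell in all 3 comparisons. COMP, the cartilage thrombospondin, was low at all times but rose 19.7-fold at week 1 over week 0 (adjusted p = 1.6e-16), to 2.88 ± 0.406 against 0.144 ± 0.0129 CPM. SMOC1, of the SPARC family, fell 5.33-fold at week 1 (adjusted p = 5.8e-10), to 9.73 ± 0.840 against 51.9 ± 6.77 CPM. TGFBI, the TGF-beta-induced paralog of periostin, was not called at week 1 (3926 ± 83.5 against 4171 ± 259 CPM at week 0, adjusted p = 0.082). At week 4 it was 1.52-fold above week 0, at 6326 ± 180 CPM (adjusted p = 5.3e-11, edgeR). SPARCL1 and TNR, the pair with the lowest adjusted p among those lower at week 4 than at week 1, were both under 1 CPM on average in each group. TNR, a tenascin of nervous tissue, averaged 0.396 CPM at week 1 and 0.118 CPM at week 4 and was at 0 in all week 0 libraries, so its fitted fold changes over week 0 are not given.

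Receptors for these proteins rose more often than they fell. Of 24 listed, 23 were tested, with 17 higher and 5 lower at week 1, 17 higher and 2 lower at week 4 against week 0, and 12 higher and 2 lower at week 4 against week 1 (median log2 fold change 0.45, 0.56 and 0.25). SDC4, the syndecan that acts with integrins in fibronectin adhesion, stood at 254 ± 12.8, 505 ± 16.3 and 539.7 ± 26.3 CPM at weeks 0, 1 and 4, 1.99-fold higher at week 1 than at week 0 (adjusted p = 1.3e-14). ITGB8, a subunit of an integrin that activates latent TGF-beta, stood at 4.87 ± 0.729, 15.5 ± 2.57 and 37.4 ± 4.199 CPM in the same order and was 7.68-fold higher at week 4 than at week 0 (adjusted p = 1.7e-15). ITGA3 was 1.95-fold higher at week 1 than at week 0 (adjusted p = 4.3e-13). SDC1 fell 2.14-fold at week 1, to 36.7 ± 2.04 against 78.7 ± 4.77 CPM at week 0 (adjusted p = 5.3e-13). ITGB1, the beta subunit of the main fibronectin receptor, was higher at both times than at week 0 and fell 1.09-fold between week 1 and week 4 (adjusted p = 0.022). CD36, a thrombospondin receptor, averaged 1.34, 2.09 and 1.35 CPM at weeks 0, 1 and 4.

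Genes for matrix proteins that these glycoproteins bind, or that process the matrix, were split in direction at week 1 and mostly above week 0 at week 4. Of 27 tested, 12 were higher and 11 lower at week 1, 22 higher and 1 lower at week 4 against week 0, and 22 higher and 2 lower at week 4 against week 1 (median log2 fold change 0.05, 0.75 and 0.48). TGM2, the transglutaminase that cross-links fibronectin, stood at 189 ± 18.1, 927 ± 24.8 and 811 ± 49.5 CPM at weeks 0, 1 and 4 and was 4.91-fold higher at week 1 than at week 0 (adjusted p = 8.8e-19). FBLN1, a fibulin that binds fibronectin, was at 280.1 ± 22.7, 138 ± 6.32 and 405 ± 58.4 CPM, below week 0 at week 1 (adjusted p = 1.5e-10) and above it at week 4 (adjusted p = 4.9e-06), the same order of weeks as TNC. NID1 (nidogen) fell 2.23-fold at week 1 (adjusted p = 1.7e-13) and was the 1 gene of the list below week 0 at week 4, at 280.1 ± 13.9 against 309.9 ± 36.6 CPM (adjusted p = 0.041), with overlap between the libraries.

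TGF-beta-responsive genes, a pathway known to induce FN1, TNC, POSTN and CCN2 in fibroblasts, showed 6 of 14 higher and 7 lower at week 1, 7 higher and 3 lower at week 4 against week 0, and 10 higher and 2 lower at week 4 against week 1. Their median log2 fold change was -0.05, 0.06 and 0.44. SMAD7, an inhibitory SMAD, had 48.8 ± 2.98, 18.8 ± 0.673 and 32.4 ± 2.33 CPM at weeks 0, 1 and 4 and was lower than at week 0 both times. IL11 fell 5.21-fold at week 1 (adjusted p = 2.6e-15) and ADAM12 was 4.81-fold higher at week 4 than at week 0 (adjusted p = 2.6e-16). YAP and TAZ target genes other than CCN1 and CCN2 were 14 higher and 6 lower of 22 at week 1, 11 higher and 4 lower at week 4 against week 0, and 5 higher and 8 lower at week 4 against week 1, with medians of 0.47, 0.25 and -0.06. Among them ANKRD1 stood at 10.8 ± 1.33, 40.9 ± 2.35 and 22.2 ± 2.90 CPM and F3, tissue factor, at 279.7 ± 6.67, 522 ± 10.5 and 287 ± 32.0 CPM at weeks 0, 1 and 4, both highest at week 1 as CCN1 was. AXL, like CCN2, was lower than at week 0 both times, with 843 ± 76.8, 664 ± 14.5 and 645 ± 16.9 CPM in that order of weeks. Immediate-early genes were 5 higher and 8 lower of 14 tested at week 1, 6 higher and 5 lower at week 4 against week 0, and 5 higher and 2 lower at week 4 against week 1, with medians of -0.13, -0.02 and 0.01. JUN was 2.22-fold higher at week 1 than at week 0 (adjusted p = 4.6e-14) and NR4A1 7.35-fold lower (adjusted p = 4.4e-17, edgeR). The lists were written with earlier results of these data known and are read by their counts.

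**Figure D5:**
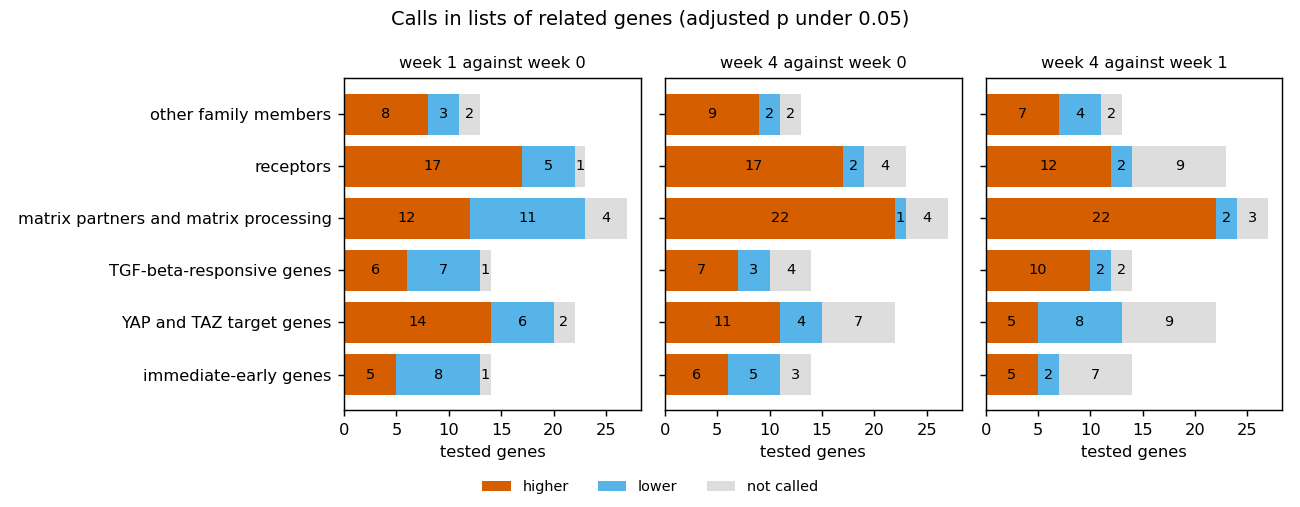
Number of tested genes called higher, called lower or not called at an adjusted p under 0.05 in 6 lists of related genes, in the 3 comparisons. Matrix partners are split 12 to 11 at week 1 and stand at 22 higher to 1 lower at week 4 against week 0, and receptors are mostly higher in all 3 comparisons.

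The genes whose levels ran most like each of the 8 over the 17 libraries were found by the Pearson correlation of log2(CPM + 1) among genes of at least 5 CPM on average. All points share the 3 groups and the same library sizes, so a value describes the steps between groups and carries no p. TNC was most like MFAP4, which encodes a microfibril-associated glycoprotein (r = 0.99), with means of 148, 77.5 and 303 CPM at weeks 0, 1 and 4, and next like FBLN1 (r = 0.98). POSTN was most like LSAMP (r = 0.98), at 31.3, 19.2 and 39.0 CPM, and AQP3, an aquaglyceroporin (r = 0.98). THBS1 was most like NRP2, a neuropilin (r = 0.98), and COL6A3, a chain of collagen VI (r = 0.98), at 6586, 5736 and 11108 CPM. THBS2 was most like CNTNAP1 (r = 0.996) and COL1A2, a chain of collagen I (r = 0.995), at 8861, 17561 and 20872 CPM. FN1 was most like PTPRF, a receptor phosphatase gene (r = 0.997), and HSPG2, the perlecan gene (r = 0.997), at 367, 1038 and 1198 CPM. SPARC was most like INKA2 (r = 0.996) and PPP1R3C, a glycogen-targeting subunit of protein phosphatase 1 (r = 0.995), at 50.1, 166 and 158 CPM. CCN1 was most like RRAD (r = 0.99), a small GTPase gene at 0.855, 14.8 and 5.58 CPM, and PSG4 (r = 0.99), whose near-identical PSG copies make its counts uncertain. CCN2 had the loosest matches of the 8, CSGALNACT1 (r = 0.96), a chondroitin sulfate synthesis gene at 69.2, 27.6 and 29.1 CPM, and IPO11 (r = 0.96). Among all pairs of the 8 themselves, the highest values were for THBS2 with FN1 (r = 0.99), SPARC with FN1 (r = 0.97) and TNC with POSTN (r = 0.96). The lowest were for CCN2 with SPARC (r = -0.90), FN1 (r = -0.86), CCN1 (r = -0.84) and THBS2 (r = -0.83).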

How the data were processed

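RNA-seq counts per gene were deposited for 17 libraries of IMR-90 fibroblasts. Per the submitters' processing notes, the authors used HISAT2 2.0.5.2 and featureCounts 1.4.6. The notes name the genome build mm10, a mouse build, although the symbols are human, so no coordinates are taken from the files; annotation and strand setting were not given in the sources used here. The deposited values are raw counts. In 4 tables (week 0 replicates 5 and 6, week 1 replicates 1 and 2) the authors also deposited a gene length, used here for CPM per kilobase. An entry with a blank name held 0.221% to 0.289% of the counts and was left out.

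Genes passing filterByExpr (16891) were tested with edgeR 4.0.16 (R 4.3.3): TMM scaling, a quasi-likelihood fit of all 17 libraries with a mean per group, and Benjamini-Hochberg adjustment over all tested genes, called at an adjusted p under 0.05. Standard errors are the log2 fold change over the root of F, and intervals use the degrees of freedom of the fit. The script was tested on simulated data. Alternatives were limma 3.58.1, DESeq2 1.42.0, other scaling and filters, a minimum change of 1.5-fold, a replicate block, a file-class term, and libraries left out; fits within the tables that hold gene lengths were chosen after seeing the data. No 2 libraries agreed within counting noise. The genes and lists were chosen with earlier results of these data known. Beside the 9 genes, the text names genes that the rule picked: up to 2 rising and 2 falling genes per list and comparison with the smallest adjusted p, of which a part is given, and the 2 genes most correlated with each gene. A gene picked in 1 comparison may be given in others. Promoter windows are RefSeq sequences on GRCh38.p14, stopping at the start. Other genes that the rule picked are not reported here.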

Additional observations from a re-analysis of the deposited data

Results flagged for a closer look

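Of 24 sets of libraries (8 genes in 3 groups), 3 held a library set apart from its group by a gap larger than Dixon's 95% critical value, a test that chance passes in about 1 in 20 sets. SPARC in week 0 replicate 4 was at 2677 CPM, with a gap of 0.818 of the range. That library is also among the pair with a high share of ribosomal protein counts, and without the pair SPARC was still higher at weeks 1 and 4 than at week 0 (log2 fold changes 1.00 and 1.01, against 0.97 and 0.98 with all libraries). SPARC in week 4 replicate 5 was at 4946 CPM, with a gap of 0.633 of the range. CCN2 in week 1 replicate 6 was at 798 CPM, with a gap of 0.716 of the range.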

How the results depend on the processing

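Of 704 alternative values of the genes' log2 fold changes, 692 kept their direction and their side of the threshold, 6 became called, 1 was no longer called and 5 changed sign. The 5 sign changes concerned differences near 0 that were never called. For SPARC at week 4 against week 1 they were -0.0209 without scaling (adjusted p = 0.69), -0.00547 with only the compared groups fitted (adjusted p = 0.89), -0.00306 with a file-class term (adjusted p = 0.97), and a range of -0.000525 to 0.0142 over libraries left out. For CCN2 in the same comparison it was -0.000622 without scaling (adjusted p = 0.99). All 6 new calls were THBS1 at week 1 against week 0, as given above for libraries left out and for the tables with gene lengths, and also without scaling (-0.29, adjusted p = 8.5e-05). Omitting TMM scaling shifts the median of all genes by -0.16, -0.19 and -0.03. Against a minimum change of 1.5-fold, 4 of the genes rather than 8 were called at week 4 against week 0 and 2 rather than 6 at week 4 against week 1. The share over all tested genes was not counted for this minimum. Same-numbered libraries did not deviate together (2 of 16 pairs over 0.1). With a replicate block 11096, 11180 and 6669 genes were called, and 8, 8 and 6 of the genes described here; THBS1 at week 1 then had an adjusted p of 0.040. Over libraries left out, 10981 to 11372, 11015 to 11356 and 6218 to 7308 genes were called, and 7 to 8, 8 and 6 of the genes described here. At this depth counting error is no limit for the 8 tested genes, while TNXB could not be tested.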
